A study of Rattus norvegicus with 6 samples.

Results

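miR-146a and miR-146b are paralogous microRNAs that restrain inflammatory signalling. Their mature strands were followed here in the trigeminal ganglion of the rat after a nerve injury. All rows of the deposited count table whose name carries the stem miR-146a or miR-146b were taken, which gave 4 of 650 listed miRNAs: rno-miR-146a-5p, rno-miR-146b-5p, rno-miR-146a-3p and rno-miR-146b-3p, written below without the species prefix. All 4 passed the filter on low counts, which kept 463 miRNAs. This ganglion houses facial sensory neurons together with satellite glia, Schwann cells, vessels and resident immune cells. The CCI-ION group (chronic constriction injury of the infraorbital nerve, loose silk ligatures, left side) and the sham group (nerve exposed, not ligated) each had 3 libraries. Every library came from ipsilateral ganglia taken on day 14, and the rats were Sprague-Dawley aged 8 to 10 weeks. No genotype or drug differed between the groups, and whether a library is 1 animal is not stated, so the p-values measure the spread between libraries, which may in part be technical.

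A microRNA guides the silencing machinery to messenger RNAs that pair with its seed, the bases 2 to 8 of the mature strand. The transcription factor NF-κB switches on the miR-146a gene downstream of Toll-like and interleukin-1 receptors, and miR-146a in turn lowers the adaptor proteins IRAK1 and TRAF6 of the same receptors, which forms a negative feedback loop. miR-146b is expressed from a separate gene and has the same seed. In nervous tissue this family is known from microglia and astrocytes, and outside it from leukocytes.

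The 5p strands are shown first because they carry nearly all reads and differ only near their 3′ ends, so that the letters set how well the counts can be told apart. They are written 5′ to 3′ as in RefSeq (GRCr8), with the seed in capitals.
miR-146a-5p: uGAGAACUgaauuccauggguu
miR-146b-5p: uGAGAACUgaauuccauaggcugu
miR-146a-3p: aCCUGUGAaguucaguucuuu
miR-146b-3p: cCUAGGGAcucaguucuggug

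All 4 sequences were found in RefSeq and were the same as the deposited ones. Both 5p strands have the seed GAGAACU, which no other of the 650 listed miRNAs has at bases 2 to 8. The first 17 bases of both are the same. Counted from 1 at the 5′ end, with the miR-146a-5p base first, the differences over the shared 22 bases are G18A and U21C, and miR-146b-5p runs 2 bases further. A read that ends before base 18 therefore fits both, and the sources used here do not name the read counter that assigned such reads. For that reason each 5p strand is reported as uncertain and their sum is given beside them. The 3p strands differ at 15 of 21 bases, in the seed as well, and cannot be confused.

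The hairpin precursors show where the strands lie, with both mature strands in capitals and the 5p strand first.
Mir146a: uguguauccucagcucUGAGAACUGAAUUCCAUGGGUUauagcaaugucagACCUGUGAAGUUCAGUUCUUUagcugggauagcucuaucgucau
Mir146b: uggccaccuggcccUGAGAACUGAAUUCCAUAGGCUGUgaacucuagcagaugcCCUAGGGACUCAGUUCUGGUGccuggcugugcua

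In GRCr8, which is not the rn6 build named in the submitters' processing notes, the Mir146a hairpin lies on the minus strand at chr10:28349996-28350090 and the Mir146b hairpin on the plus strand at chr1:255144860-255144947. The Mir146a gene lies within the span of the lncRNA gene LOC134480673, and Pttg1 is the nearest protein-coding gene at higher coordinates. The Mir146b gene lies within the span of the protein-coding gene C1h10orf95. Nfkb2, which encodes a subunit of NF-κB, is close to Mir146b, with 3 protein-coding genes between them. Whether the hairpins are exonic or intronic in these genes was not analysed here.

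Total miRNA counts were 6420434 to 12560545 per library. Levels below are CPM, miRNA counts relative to the library's miRNA total after scaling by trimmed means (TMM). The authors' RPM values divide the same counts by a larger total, of which miRNA reads made up 52.3%, 66.6% and 66.6% (sham libraries 1 to 3) or 45.4%, 45.8% and 55.8% (CCI-ION libraries 1 to 3). What else that total counts is not stated. Libraries with the same replicate number deviated together from their group means, so each fold change is also given from a fit with that number as a block. Fold changes are CCI-ION over sham on the log2 scale, tested across all miRNAs with edgeR's quasi-likelihood test and Benjamini-Hochberg adjustment, and called below 0.05.

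Among miRNA reads, both 5p strands were higher in every CCI-ION library than in any sham library. With the replicate block both rose, miR-146b-5p by a log2 fold change of 0.55 ± 0.09 (SE) and miR-146a-5p by 0.40 ± 0.10. edgeR for group alone called neither. DESeq2 for group alone called both, after adjusting over fewer miRNAs than edgeR. Neither 3p strand was called. On the RPM scale, with all 6 libraries, both 5p strands overlapped between the groups and neither was called. Their rise was thus shown only relative to the other miRNAs. With 3 libraries per group, the RPM scale cannot decide on a smaller rise.

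miR-146b-5p, the more abundant strand, measured 5560, 5956 and 6138 CPM in the sham libraries, numbered 1 to 3, against 7806, 8670 and 9391 CPM after CCI-ION. The lowest CCI-ION library was above the highest sham library. Behind these levels were 53902 to 90558 reads, so counting error was small beside the spread between libraries. The group means were 5884 ± 296 and 8623 ± 794 CPM (SD, n = 3 each), which put the CCI-ION mean at 1.47 times the sham mean. Within the replicate numbers the CCI-ION library was 1.40, 1.46 and 1.53 times the sham library. In CPM the two-sided exact permutation p was 0.1 and the exact sign-flip p over the pairs 0.25. Each is the lowest that so few libraries allow. edgeR gave 0.55 ± 0.13 for group alone (adjusted p = 0.156), and an adjusted p of 1.36e-05 with the block. DESeq2 called it without the block (adjusted p = 0.00595) and with it (3.61e-07), and limma-voom only with it (0.00691, against 0.173 for group alone).

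miR-146a-5p measured 2097, 2176 and 2298 CPM in the sham libraries against 2765, 2867 and 3033 CPM after CCI-ION. These groups did not overlap either. The group means were 2190 ± 101 and 2888 ± 135 CPM (SD, n = 3 each), and the counts behind them ranged from 17822 to 32080 reads. The fold was nearly the same within each replicate number, at 1.32 in all 3 pairs. In CPM its exact permutation p was 0.1 and its exact sign-flip p 0.25, again the lowest possible values. edgeR gave 0.40 ± 0.12 for group alone (adjusted p = 0.316), and an adjusted p of 0.00222 with the block. DESeq2 gave 0.0480 without the block and 0.000399 with it, and limma-voom gave 0.319 and 0.0223.

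These calls can be read against all 463 tested miRNAs. edgeR called 3 of them (0.648%) for group alone, 1 of them higher (0.216%), and 54 (11.7%) with the block, 28 of them higher (6.05%). DESeq2 called 13 (2.81%), 6 of them higher (1.3%), and with the block 44 (9.5%), 26 of them higher (5.62%). For group alone DESeq2 gave some low-level miRNAs no adjusted p, miR-146a-3p among them, so it adjusted over fewer than 463. limma-voom called as many as edgeR for group alone (0.648%, of which higher 0.216%), and with the block 39 (8.42%), 22 of them higher (4.75%). The 5p strands were thus called by fits that called from 2.81% to 11.7% of all miRNAs. In 31 miRNAs (6.7%) every CCI-ION library was above every sham library in CPM, and in 93 (20.1%) the CCI-ION library was the higher one in all 3 pairs. By p-value with the block, miR-146b-5p was in place 10 and miR-146a-5p in place 31. Leaving out both libraries numbered 3 ended the block's calls for miR-146b-5p (0.51 ± 0.12, edgeR adjusted p = 0.0918) and miR-146a-5p (0.39 ± 0.13, edgeR adjusted p = 0.211), at fold changes close to those of all libraries.

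**Figure D1:**
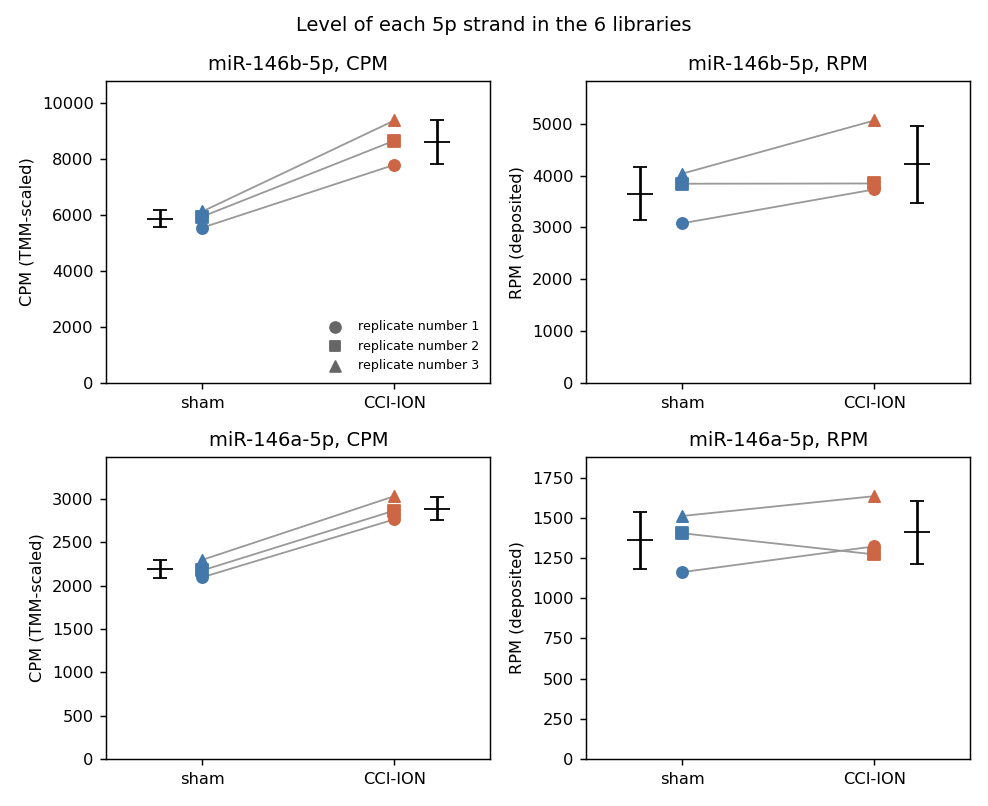
Level of miR-146b-5p (top) and miR-146a-5p (bottom) in the 6 libraries, as TMM-scaled CPM (left) and as the deposited RPM (right), with axes from 0. Points are libraries, grey lines join the same replicate number, and black bars are the mean ± SD of 3 libraries. In CPM the groups do not overlap, with miR-146b-5p at 5560 to 6138 in sham and 7806 to 9391 in CCI-ION, and in RPM they do.

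**Figure D2:**
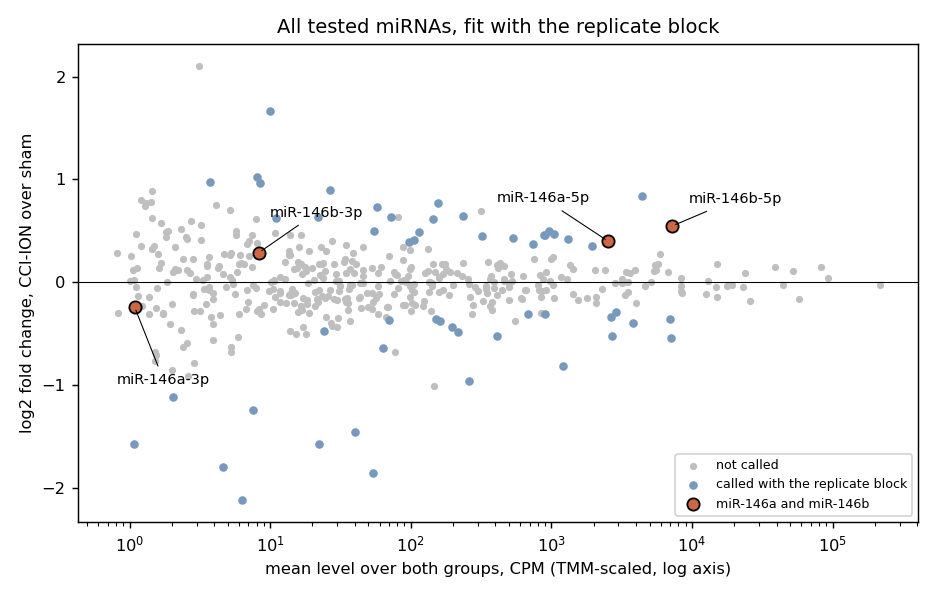
Log2 fold change with the replicate block against mean CPM (log axis) for the 463 tested miRNAs. Blue points were called, and the 4 miR-146 strands are orange, of which the 5p strands (0.55 and 0.40) were called and the 3p strands were not.

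On the deposited RPM scale miR-146b-5p measured 3081, 3842 and 4037 RPM in the sham libraries against 3733, 3848 and 5061 RPM after CCI-ION. Only CCI-ION library 3 was above all sham libraries, a separation that 5 of 463 miRNAs (1.08%) showed for all 3, and the means were 3653 ± 505 and 4214 ± 736 RPM (SD, n = 3 each, two-sided exact permutation p = 0.5). Within replicate numbers the CCI-ION library was 1.21, 1.00 and 1.25 times the sham library, higher in 3 of 3 pairs (exact sign-flip p = 0.25, the lowest that 3 pairs allow), though hardly so in pair 2. miR-146a-5p measured 1162, 1404 and 1511 RPM in the sham libraries against 1322, 1272 and 1635 RPM after CCI-ION, and within replicate number 2 it was lower in CCI-ION (0.906 times the sham level, exact sign-flip p = 0.75 over the 3 pairs). Its means were 1359 ± 179 and 1410 ± 196 RPM (SD, n = 3 each, exact permutation p = 0.8). Scaled to the total behind the RPM, with the block, the log2 fold change was 0.20 ± 0.15 for miR-146b-5p (edgeR adjusted p = 0.275) and 0.05 ± 0.16 for miR-146a-5p (0.808). The median of all miRNAs on that scale was -0.35, and 156 of 452 tested were called (34.5%), 6 of them higher (1.33%) and 150 lower. For group alone on that scale edgeR called 6 (1.33%), 1 of them higher (0.221%). The scales use the same counts and differ only in the divisor. Their difference is therefore set by the share of miRNA reads in the RPM total, lower on average in CCI-ION, together with the TMM factor. Why that share differed was not tested.

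Together the 5p strands held 0.811% ± 0.023 of the miRNA reads in sham and 1.14% ± 0.05 in CCI-ION (SD, n = 3 each). No sham library was above 0.833% and no CCI-ION library below 1.11% (exact permutation p = 0.1, two-sided, which is as low as 3 against 3 libraries can go). As a share of the RPM total they held 0.501% ± 0.068 and 0.562% ± 0.093 (exact permutation p = 0.6, n = 3 each). Fitted as 1 summed row, they gave a log2 fold change of 0.51 ± 0.09 with the block (edgeR adjusted p = 2e-05, and 0.199 for group alone). The sum does not depend on how reads were divided between the strands if each short read was counted once. Whether that was so is not stated. Without the libraries numbered 3 it was 0.48 with the block and was not called (edgeR adjusted p = 0.106).

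The proportion of the paralogues also differed. Per read of miR-146a-5p the sham libraries had 2.65, 2.74 and 2.67 reads of miR-146b-5p, whereas the CCI-ION libraries had 2.82, 3.02 and 3.10. The ratio was higher in every CCI-ION library than in any sham library and is the same on either scale. In log2 it was 0.15 higher in CCI-ION (exact permutation p = 0.1, n = 3 each), the lowest value this test can give with 3 against 3 libraries. How the uncertain short reads were assigned bears on this ratio and was not tested.

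In the order of mean levels miR-146b-5p took place 22 and miR-146a-5p place 49 of the 650 listed miRNAs. Each read stands for a single mature strand, so these levels were not divided by length. By library, miR-146b-5p held places 25 to 26 in sham and 19 to 20 in CCI-ION, and miR-146a-5p held places 49 to 52 and 44 to 45. The next miRNA above miR-146b-5p was miR-30d-5p, with 8443 ± 901 CPM in sham against 8261 ± 1216 CPM after CCI-ION (SD, n = 3 each). The sham means of these neighbours were further apart than their SDs, and the CCI-ION means differed by less than theirs. Below it came miR-1b, a muscle miRNA, at 8385 ± 2939 and 5905 ± 2511 CPM. miR-146a-5p stood between miR-218a-5p, which is enriched in neurons (2925 ± 282 and 2375 ± 666 CPM), and miR-23a-3p (2302 ± 479 and 2477 ± 221 CPM). In sham, miR-146a-5p and miR-23a-3p differed by less than the SD of miR-23a-3p, and in CCI-ION miR-146a-5p and miR-218a-5p by less than the SD of miR-218a-5p.

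The 3p strands, the passenger strands that are mostly degraded after the hairpin is cut, were rare. miR-146b-3p had 92, 83 and 72 sham reads against 126, 48 and 65 after CCI-ION, or 6.91, 8.45 and 7.23 CPM against 10.86, 7.72 and 8.74 CPM. The groups overlapped, and its log2 fold change with the block was 0.29 ± 0.23 (edgeR adjusted p = 0.503), and negative on the RPM scale (-0.05 ± 0.25, edgeR adjusted p = 0.87). miR-146a-3p had 18, 10 and 11 sham reads against 10, 6 and 9 after CCI-ION, where a count of 6 has an exact 95% Poisson interval of 2.2 to 13.1 reads for counting error. It stood near 1 CPM in both groups (1.16 ± 0.173 and 1.01 ± 0.179, SD, n = 3 each), and its log2 fold change with the block was -0.24 ± 0.42 (edgeR adjusted p = 0.778). On the RPM scale every CCI-ION library (0.412, 0.428 and 0.652) was below every sham library (0.749, 0.657 and 0.726), as were 136 of 463 miRNAs (29.4%). A difference of the size seen in miR-146a-5p was thus not detectable in miR-146a-3p at this depth.

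Per hairpin, the 3p strand made up 0.0312% to 0.0644% of the miR-146a reads and 0.089% to 0.142% of the miR-146b reads. The lowest miR-146b share, in CCI-ION library 2, was above the highest miR-146a share, in sham library 1, though the exact 95% binomial intervals of these overlapped. There were 705 to 1123 reads of miR-146b-5p per read of its 3p strand, and 1551 to 3208 in miR-146a. For miR-146a the 3p share was 0.0644%, 0.0468% and 0.0480% in the sham libraries against 0.0312%, 0.0337% and 0.0399% after CCI-ION. Each sham value was higher than each CCI-ION value (0.60 in the log2 ratio of 5p to 3p, exact permutation p = 0.1, n = 3 each), but every library's interval overlapped that of every other library. For miR-146b the groups overlapped (0.28 in the log2 ratio, exact permutation p = 0.3, n = 3 each).

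**Figure D3:**
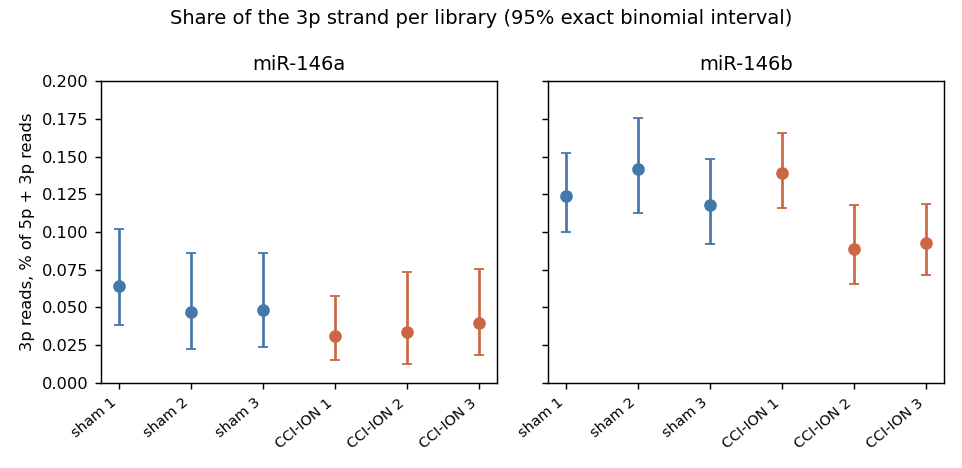
Reads of the 3p strand as a percentage of 5p and 3p reads of miR-146a (left) and miR-146b (right) in each library, with exact 95% binomial intervals for counting error. The miR-146b shares (0.089% to 0.142%) lie above the miR-146a shares (0.0312% to 0.0644%), and within each hairpin all intervals overlap.

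Other miRNAs linked to inflammatory and NF-κB signalling gave a mixed picture. Of 27 listed, all tested, 5 rose with the block and 1 fell, where 6.05% of all tested miRNAs were called higher and 11.7% in either direction. For group alone edgeR called 0, with 5 at an unadjusted p under 0.05, limma-voom called 0 and DESeq2 called 1, lower. Over the list the median log2 fold change with the block was 0.06 with 18 of 27 positive, beside 0.00025 over all 463. Those that rose were miR-21-5p, miR-142-3p, miR-155-5p, miR-221-3p and miR-10a-5p. Without the libraries numbered 2 the block called 1 higher and 0 lower (31 among all miRNAs), and without those numbered 3 it called 0 (5 among all miRNAs), with 6 at an unadjusted p under 0.05.

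miR-21-5p, which is induced by many kinds of tissue injury, measured 2652, 3704 and 2874 CPM in the sham libraries against 3666, 7863 and 5652 CPM after CCI-ION. Its groups overlapped in CCI-ION library 1, and its log2 fold change with the block was 0.84 ± 0.11 (edgeR adjusted p = 5.63e-08). miR-155-5p, which NF-κB also induces and which promotes inflammation, measured 14.9, 16.1 and 19.7 CPM in the sham libraries against 18.8, 30.6 and 30.9 CPM after CCI-ION, with overlap. It rose by 0.63 ± 0.17 with the block (edgeR adjusted p = 0.00512, limma-voom 0.0551). miR-155-5p was thus far less abundant than both miR-146 5p strands in every library, and more abundant than both 3p strands. miR-221-3p, linked to cell proliferation, rose by 0.45 ± 0.11 (edgeR adjusted p = 0.00231), and miR-10a-5p by 0.35 ± 0.10 (edgeR adjusted p = 0.0113), with limma-voom at 0.055 and 0.0551. The member that fell was the neuronal miR-124-3p, from 251 ± 9.28 to 180 ± 18.9 CPM (-0.48 ± 0.11, edgeR adjusted p = 0.000927). The most abundant members, let-7i-5p, miR-27b-3p and miR-125b-5p, had adjusted p-values of 0.279 to 0.92 with the block in edgeR. Scaled to the RPM total, with the block, edgeR called 1 of the 27 members higher (miR-21-5p) and 5 lower. Among all 452 miRNAs tested on that scale, 6 (1.33%) were called higher and 150 lower, or 34.5% in either direction.

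**Figure D4:**
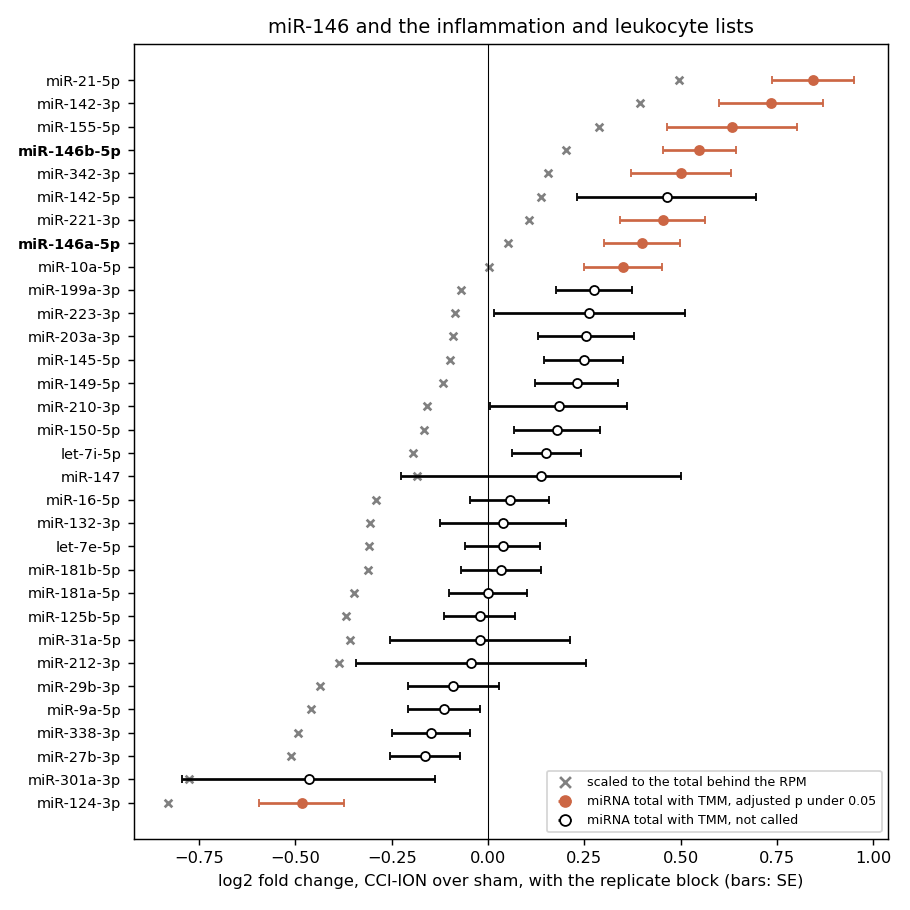
Log2 fold change with the replicate block (bars are SE) for miR-146a-5p and miR-146b-5p (bold) and the members of the inflammation and leukocyte lists. Orange points were called with edgeR, open points were not, and grey crosses give the same miRNA scaled to the total behind the RPM. miR-146b-5p (0.55) lies between miR-155-5p (0.63) and miR-342-3p (0.50), and every cross lies to the left of its point.

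Some markers of leukocytes were also higher in CCI-ION. In a bulk ganglion, more cells of a type and more RNA per cell cannot be told apart. Of 5 leukocyte markers 2 rose with the block, where 6.05% of all tested miRNAs were called higher, and edgeR called 0 for group alone, with 1 at an unadjusted p under 0.05 (DESeq2 and limma-voom also called 0). miR-142-3p, made in blood-derived cells, measured 57.5, 33.0 and 40.8 CPM in the sham libraries against 76.9, 71.7 and 65.8 CPM after CCI-ION, without overlap (0.73 ± 0.14, edgeR adjusted p = 5.02e-05). miR-342-3p rose from 45.3 ± 8.61 to 64.0 ± 11.9 CPM (0.50 ± 0.13, edgeR adjusted p = 0.00383). miR-142-5p (11.9 ± 7.18 and 15.6 ± 3.18 CPM), the lymphocyte miR-150-5p (163 ± 5.48 and 186 ± 28.9 CPM) and the myeloid miR-223-3p (5.58 ± 1.52 and 6.72 ± 1.88 CPM) were not called. Summed, the 5 markers ranged from 255 to 287 CPM in sham and from 322 to 363 CPM in CCI-ION, without overlap, and from 159 to 175 and 143 to 187 on the RPM scale, with overlap. None was at 0, the lowest count being 45 reads. Their part in the miR-146 difference was not tested. Without the libraries numbered 2 or those numbered 3, edgeR with the block called 0 of the 5, with 3 and 2 of them at an unadjusted p under 0.05.

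Among markers of other cells, muscle miR-133a-3p and miR-206-3p summed to 84.6 to 109 CPM in sham and 53.4 to 72.5 CPM in CCI-ION. These ranges did not overlap, where 13.8% of all tested miRNAs were apart in CPM in either direction. Most of the sum was miR-133a-3p, which fell with the block (-0.64 ± 0.13, edgeR adjusted p = 0.000115). By itself miR-206-3p overlapped between groups and was not called (-0.50 ± 0.19, edgeR adjusted p = 0.0759). For group alone edgeR called neither. The sum leaves out other muscle miRNAs. miR-1-3p, at 89.8 ± 20.8 and 64.2 ± 44.9 CPM, overlapped between groups and was not called with the block (edgeR adjusted p = 0.643). The far more abundant miR-1b stood at 8385 ± 2939 and 5905 ± 2511 CPM. The fibroblast marker miR-199a-5p rose with the block (0.43 ± 0.11, edgeR adjusted p = 0.00383, limma-voom 0.0864). Leaving out the libraries of any 1 replicate number ended the call of the fibroblast marker, and edgeR called neither muscle marker without those numbered 3, with 1 of them at an unadjusted p under 0.05. The sums of the neuronal, myelinating glial, fibroblast and mural, erythroid and endothelial markers overlapped between groups, led by miR-183-5p, miR-338-3p, miR-143-3p, miR-451-5p and miR-126a-3p. In the neuronal sum miR-124-3p is a small part, and it was lower in every CCI-ION library than in any sham library. Scaled to the RPM total, with the block, edgeR called the 3 neuronal markers, both muscle markers, miR-338-3p, miR-143-3p and miR-144-3p lower. On that scale 34.5% of all miRNAs were called. There miR-199a-5p was not called (0.08, edgeR adjusted p = 0.696). The myelin-associated miR-219a-5p had 0 to 5 reads per library and was not tested. The part of these cells in the miR-146 difference was not tested either.

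The miRNAs whose pattern over the 6 libraries was most like that of the 5p strands were found by the root mean square difference of log2 CPM, each centred on its own mean. They were miR-351-5p (0.054), miR-758-3p (0.061), miR-539-5p (0.075) and miR-3557-3p (0.082), where the median of all other tested miRNAs was 0.38. miR-146a-5p and miR-146b-5p themselves differed by 0.086. miR-351-5p stood at 458 ± 32.8 and 617 ± 14.1 CPM, and miR-758-3p at 89.8 ± 1.46 and 120 ± 7.62 CPM (SD, n = 3 each). Both rose with the block (0.43 ± 0.10 with edgeR adjusted p = 0.00181, and 0.41 ± 0.12 with 0.0105). miR-539-5p and miR-3557-3p stood under 10 CPM and were not called. The measure includes the difference between the groups, so like fold changes follow from the choice of these miRNAs. Their calls are no separate test, and the measure is a description only.

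**Figure D5:**
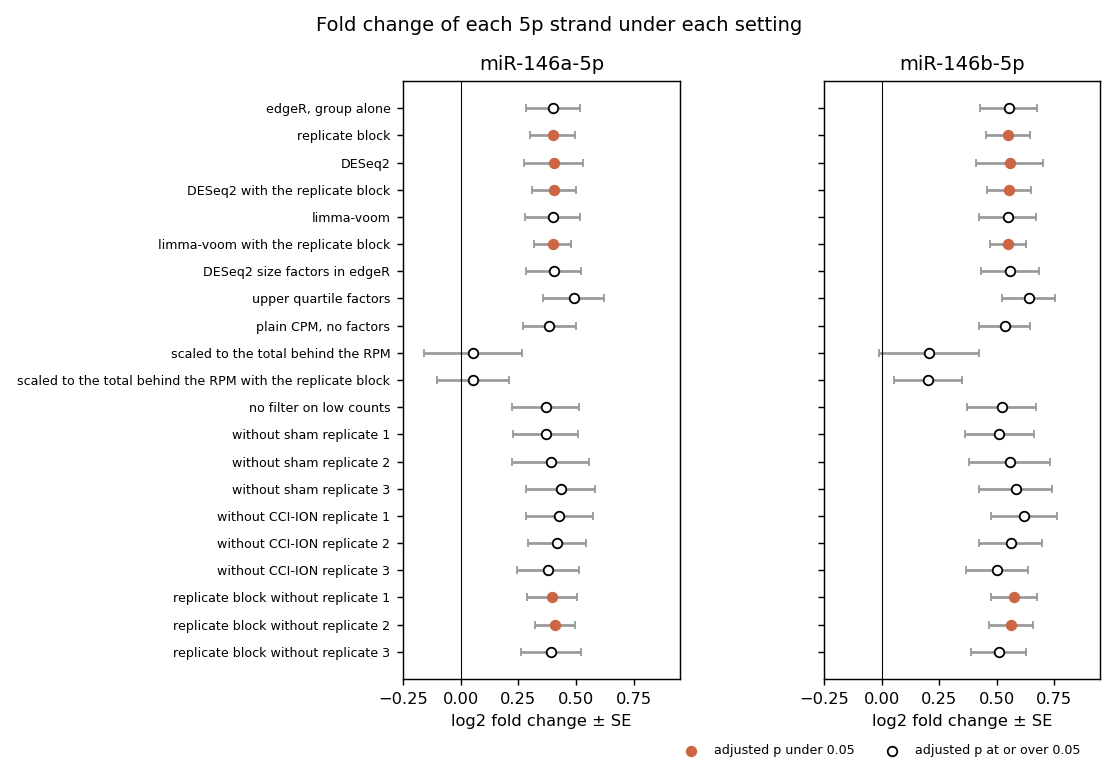
Log2 fold change (± SE) of miR-146a-5p (left) and miR-146b-5p (right) under each setting listed at the left. Orange points had an adjusted p under 0.05. Most values stay near 0.40 and 0.55. They are highest with upper quartile factors in place of TMM (0.49 and 0.64). Lowest are those where libraries were scaled to the total behind the RPM (0.05 and 0.20). With all 6 libraries the replicate block is called on the miRNA scale and not on the RPM scale.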

How the data were processed

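The authors deposited raw counts for 650 mature miRNAs in 6 libraries and RPM values per library. Libraries were made from total RNA with a TruSeq RNA kit, per the labels' protocols, and the submitters' processing notes name cutadapt 1.14, Bowtie 1.1.1 and the build rn6. No source used here names the read counter, the miRNA annotation or a size selection. As deposited, RPM values equal the counts times 1 constant per library (100% of values came out whole within 0.01 read).

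Counts were tested with edgeR 4.0.16 in R 4.3.3 (quasi-likelihood, robust, TMM, filterByExpr with a minimum count of 10), for group alone as the main fit, with p-values adjusted over all 463 miRNAs kept. The count test therefore also covers reads recovered from the RPM. DESeq2 1.42.0 and limma-voom (limma 3.58.1) were alternatives, and the procedure was tested on simulated data. DESeq2's own filter on low levels was left on, so its adjustment can cover fewer miRNAs. Same-numbered libraries correlated in their deviations from the group means at 0.664, 0.591 and 0.457, so the numbers were treated as pairing the libraries. Between different numbers the correlations were -0.614 to 0.166. Deviations within a group cancel out, so these values are not independent, and they come from the counts then tested. What the replicate numbers stand for is not stated. Both libraries numbered 1 had the largest RPM totals (24025572 in sham, 24259518 in CCI-ION) and TMM factors (1.06 in sham, 1.05 in CCI-ION). Whether this underlies the correlations was not tested. With only 2 residual degrees of freedom, the block borrows most of its variance estimate from other miRNAs (prior 54.5 degrees of freedom, 3.3 without the block).

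The miRNAs, lists and tests were chosen with earlier results of these data known. Named miRNAs are all miR-146 rows, the 4 most alike in pattern, called and the 3 most abundant members of the inflammation list, the cell markers, and the neighbours in level. miR-1-3p is named beside the muscle markers. At 3 counts, the floor lay between 0.239 and 0.467 CPM. Intervals and floors cover counting error only.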

Additional observations from a re-analysis of the deposited data

How the results depend on the processing

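Both 5p strands and their sum kept a positive log2 fold change under all settings tried except 1: miR-146a-5p was -0.014 on the RPM scale with the replicate block and without the libraries numbered 1. Results changed sides of the threshold with the block and with the tool. For miR-146a-5p, miR-146b-5p and their sum the log2 fold changes were 0.40, 0.55 and 0.51 with the replicate block, 0.40, 0.56 and 0.52 with DESeq2, 0.40, 0.55 and 0.52 with DESeq2 and the block, and 0.40, 0.55 and 0.51 with limma-voom and the block, all called. Libraries were left out 1 at a time on the miRNA scale without the block, and in pairs with the block on either scale. This gave -0.014 to 0.43 for miR-146a-5p, 0.14 to 0.62 for miR-146b-5p and 0.11 to 0.57 for the sum. In these, the block on the RPM scale without the libraries numbered 2 called miR-146b-5p (0.30, edgeR adjusted p = 0.0191) and the sum (0.26, 0.0398). These RPM-scale settings without pairs were added after seeing the data, as was the comparison of the 5p to 3p ratio with all its alternatives. On the RPM scale miR-146b-3p turned negative for group alone (-0.064) and in the block fit (-0.052), where dropping number 1 gave -0.33 and dropping number 3 gave -0.082. Its range over left-out libraries was -0.33 to 0.48. The number of miRNAs called was 3 in the main fit, 54 with the replicate block, 13 with DESeq2, 44 with DESeq2 and the block, 39 with limma-voom and the block, 6 without a filter, and 6 and 156 on the RPM scale without and with the block. Leaving out libraries gave 1 to 129. The ratio of miR-146b-5p to miR-146a-5p stayed 0.12 to 0.19 higher in log2, and the share of miRNA counts 0.304 to 0.348 percentage points higher, but 0.0611 as a share of the RPM total. The causes were not tested. Depth limits only the 3p strands.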
